A study of Homo sapiens with 6 samples.

Results

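The ligands studied here are 8 secreted growth factors of the transforming growth factor beta (TGF-beta) family, TGFB1, TGFB2, TGFB3, BMP2, BMP4, BMP7, BMP8B and INHBA, together with noggin (NOG), a secreted protein that binds bone morphogenetic proteins (BMPs) and blocks them. They were taken by symbol: every probe set whose RefSeq accession belongs to 1 of these 9 genes was used. Each of the 9 genes had 1 probe set, so 9 of the 1259 probe sets on the array were members. These genes were picked after the comparison with doxycycline was known for them, and NOG, BMP4, BMP8B and TGFB1 had already stood out in it. Their differences with doxycycline are therefore given as values with standard errors and intervals, and no p-value is attached to them.

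The cells were HCT116, a human colorectal cancer line with microsatellite instability, stably transfected so that doxycycline (DOX), an antibiotic used here as an inducer, switches on an introduced gene. By the titles that gene is wild-type ACVR2, a receptor for activin; the source field gives TGFBR2 and AIM2 beside it. There were 3 arrays of cells given doxycycline and activin A (+DOX) and 3 of cells given activin A alone (-DOX). All 6 samples thus received activin A, itself a member of the ligand family and a dimer of the INHBA product, and none received doxycycline without the inducible gene. An effect of the introduced gene cannot be told apart from one of doxycycline itself, nor can the part of activin A be seen. The labels give no dose, time after induction or number of clones, and do not say whether replicates were separate cultures. The spread between replicates may thus be technical.

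Ligands of this family are made as precursors, cut by proteases and released as dimers that bring type I and type II receptor kinases together. TGF-beta and activin signal mainly through SMAD2 and SMAD3, and BMPs mainly through SMAD1, SMAD5 and SMAD9. In the colon, TGF-beta restrains the growth of epithelial cells, and BMP signals rise from the crypt base towards the surface, where they favour differentiation, while antagonists such as noggin keep them low near stem cells.

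Upstream sequences are shown for BMP4, BMP8B and TGFB1, the 3 ligands with the largest differences between the groups, so that their composition can be seen beside those values. They come from RefSeq on GRCh38.p14, which holds windows for 6 of the 9 genes in the table used; NOG, BMP2 and BMP7 had none there. Each sequence is the 250 bases before a listed transcript start, written 5′ to 3′ on the gene's strand, which is minus for all 3. For BMP4 the most upstream of 3 listed starts was taken. The windows are chr14:53955051-53955300 for BMP4, chr1:39788866-39789115 for BMP8B and chr19:41353923-41354172 for TGFB1. Capitals mark matches to CAGAC (or its complement GTCTG), the short box that SMAD proteins bind, and to GGCGCC, a GC-rich box of BMP-responsive genes.
BMP4: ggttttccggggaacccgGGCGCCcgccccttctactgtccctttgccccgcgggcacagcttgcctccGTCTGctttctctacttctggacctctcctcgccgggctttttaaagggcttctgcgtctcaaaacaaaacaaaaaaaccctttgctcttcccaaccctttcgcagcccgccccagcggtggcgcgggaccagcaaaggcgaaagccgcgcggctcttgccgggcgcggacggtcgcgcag
BMP8B: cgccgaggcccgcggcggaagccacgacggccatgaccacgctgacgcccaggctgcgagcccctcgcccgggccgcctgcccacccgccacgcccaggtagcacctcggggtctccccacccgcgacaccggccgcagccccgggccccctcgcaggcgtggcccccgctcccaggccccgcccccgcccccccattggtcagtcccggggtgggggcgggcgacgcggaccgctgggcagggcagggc
TGFB1: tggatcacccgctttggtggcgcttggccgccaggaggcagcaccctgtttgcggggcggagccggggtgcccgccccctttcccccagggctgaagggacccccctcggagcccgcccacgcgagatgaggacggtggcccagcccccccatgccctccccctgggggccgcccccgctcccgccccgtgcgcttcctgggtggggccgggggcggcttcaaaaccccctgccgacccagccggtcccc
The BMP4 window held 1 match to the SMAD box and 1 to GGCGCC. The BMP8B and TGFB1 windows held neither. Of the other BMP4 starts, 1 had 1 SMAD box match and 1 had none. TGFB2 had 2 such matches, TGFB3 had 2 at one start and 0 at the other, and INHBA had 0. No other window held GGCGCC. Both strands were searched, and the matches in the BMP4 window do not overlap. Across 35116 windows of the same length, 38% held CAGAC on either strand and 16.4% held GGCGCC, while the palindrome GTCTAGAC, present in 0.182%, was in none of the windows of these genes. The window of BMP8B was 81.6% G or C and that of TGFB1 76.8%, against a median of 58% over all windows, whereas that of BMP4 was at 63.6%. A match in these letters is a description and was not tied to the expression values.

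Readings on the log2 scale placed BMP4 far above the remaining members. Averaged over the 6 arrays, BMP4 read 10.92, TGFB1 8.998, BMP7 8.60, BMP8B 7.53, NOG 7.46, TGFB3 6.95, TGFB2 6.49, INHBA 6.33 and BMP2 6.25. Different probe sets bind with different strength, so this is an order of readings and not of transcript amounts. Among all probe sets BMP4 stood at the 87.2 percentile, TGFB1 at 72.4 and BMP7 at 67.1, while BMP2, INHBA and TGFB2 stood at 4.69, 6.35 and 12.2. These last 3 lay under 6.88, the lower quartile of all readings, where the share of background is unknown because no detection calls were used. TGFB3, at the 27.9 percentile, was just above that limit. NOG and BMP8B lay higher, but their share of background is unknown too. CD34, a marker of cells other than colon epithelium, read 7.55, slightly above both. The other measured markers of such cells read 7.10 or lower. The readings of some neighbours overlapped between arrays: BMP2 ranged from 6.21 to 6.28 and INHBA from 6.24 to 6.38, and BMP7, from 8.49 to 8.72, lay inside the range of TGFB1, from 8.29 to 9.40. NOG and BMP8B changed places: NOG read below BMP8B in all 3 -DOX arrays and above it in all 3 +DOX arrays.

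**Figure D1:**
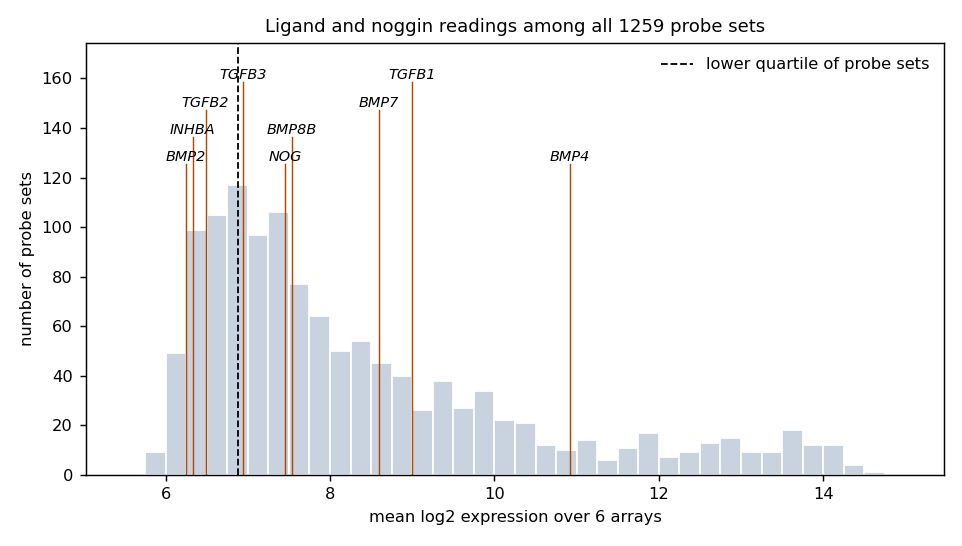
Histogram of the mean log2 expression over 6 arrays for all 1259 probe sets, with an upright line at the mean of each ligand and of NOG and a dashed line at the lower quartile. BMP4 (10.92) lies far to the right, whereas BMP2 (6.25), INHBA (6.33) and TGFB2 (6.49) lie left of the dashed line; the height of a line has no meaning.

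NOG and BMP4 differed in opposite directions, with NOG higher and its target BMP4 lower in the cells given doxycycline. NOG, whose protein holds BMP ligands away from their receptors, read 7.57, 7.57 and 7.63 in the +DOX arrays of replicates 1, 2 and 3. In the -DOX arrays it read 7.30, 7.43 and 7.22. The lowest +DOX array was thus 0.14 above the highest -DOX array. The means were 7.59 ± 0.04 and 7.32 ± 0.11 (SD, n = 3 each), a difference of 0.27 log2 units (SE 0.06, 95% interval 0.12 to 0.43), or 1.21-fold. It stood at the 94.7 percentile of the differences of all probe sets.

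BMP4, a BMP ligand of the gut, read 10.84, 10.78 and 10.63 with doxycycline. Without it the readings were 11.18, 11.16 and 10.91. All 3 +DOX arrays lay below all 3 -DOX arrays, with 0.06 between the nearest arrays of the groups. The means were 10.75 ± 0.11 and 11.08 ± 0.15 (SD, n = 3 each), a difference of -0.33 (SE 0.10, 95% interval -0.57 to -0.09), or 1.26-fold higher without doxycycline. Replicate 3 was the lowest array of each group. Without the -DOX array of that replicate the difference was -0.42.

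Since both readings come from the same array, the gap between them does not move with the overall brightness of an array. BMP4 exceeded NOG by 3.88, 3.73 and 3.69 log2 units in the -DOX arrays of replicates 1, 2 and 3, and by 3.27, 3.22 and 3.00 in the +DOX arrays. The mean gap was 3.76 ± 0.10 without and 3.16 ± 0.14 with doxycycline (SD, n = 3 each), so that it was -0.60 log2 units apart between the groups. Leaving out -DOX replicate 3 gave -0.64. The gap was computed after both genes had been seen to differ in opposite directions, so it restates those values for each array and adds no support to them.

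BMP8B, a less studied BMP ligand, also read lower with doxycycline. Its readings were 7.51, 7.43 and 7.41 in the +DOX arrays and 7.58, 7.59 and 7.68 in the -DOX arrays. The groups did not overlap, and 0.07 separated the nearest arrays. The means were 7.45 ± 0.05 and 7.61 ± 0.06 (SD, n = 3 each), a difference of -0.17 (SE 0.05, 95% interval -0.28 to -0.05), or 1.12-fold higher without doxycycline. BMP8B has a near-identical copy, BMP8A, and the array measures both, so signal may be shared between their probe sets. BMP8A read 8.62 ± 0.06 with and 8.70 ± 0.11 without doxycycline (SD, n = 3 each), with overlapping groups and a difference of -0.08 (SE 0.07; limma, adjusted p = 0.730).

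The probe sets of BMP4 and NOG carry the ending that the array maker uses for probe sets matching more than 1 transcript. For both, signal from another transcript cannot be told apart from that of the gene named.

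**Figure D2:**
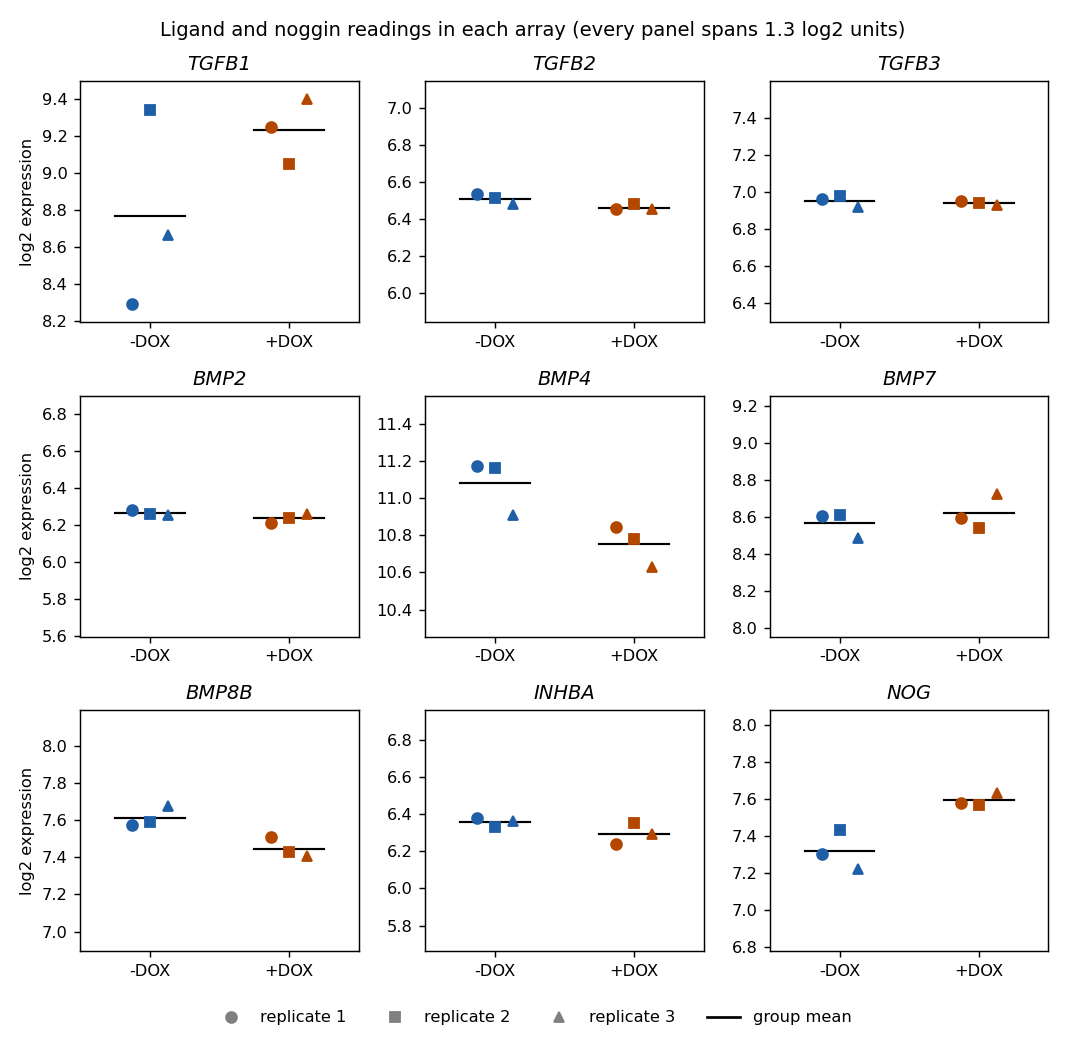
Log2 expression of each of the 9 genes in the 6 arrays, by group, with a marker shape for each replicate number and a bar at the group mean; each panel spans 1.3 log2 units around its own values. The groups lie apart for NOG (up, 0.14 between the nearest arrays) and narrowly so for BMP4 (down, 0.06) and BMP8B (down, 0.07). TGFB1 varies most among the -DOX arrays, and the other panels are nearly flat.

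TGFB1, the most widely expressed of the TGF-beta ligands, had the largest difference of the 9 genes and also the widest spread. It read 9.25, 9.05 and 9.40 in the +DOX arrays of replicates 1, 2 and 3, and 8.29, 9.34 and 8.66 in the -DOX arrays. The -DOX array of replicate 2 lay inside the range of the +DOX arrays, and the others lay below it. The means were 9.23 ± 0.18 and 8.76 ± 0.53 (SD, n = 3 each), a difference of 0.47 (SE 0.27, 95% interval -0.22 to 1.15). The SD among the -DOX arrays stood at the 97.4 percentile of all probe sets, and that among the +DOX arrays at the 96.7 percentile. Single arrays set much of the value: it was 0.75 without -DOX replicate 2, 0.23 without -DOX replicate 1, and 0.71 with array weights.

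The measured receptors and coreceptors of the family, not all of which bind TGFB1, are set beside it array by array. In -DOX replicate 2 TGFB1 was 0.57 above its group mean, while 9 of 12 measured receptors lay below theirs, with a median deviation of -0.28. TGFBR2, the signalling receptor that TGF-beta itself binds, read 9.21 there, against 9.76 and 10.04 in -DOX replicates 1 and 3. In -DOX replicate 3, 8 of 12 receptors lay above their group mean, with a median of 0.29, and TGFB1 was at -0.10. In -DOX replicate 1 TGFB1 lay at -0.47, while the receptor median was 0.02. In the +DOX arrays of replicates 1, 2 and 3 TGFB1 deviated by 0.02, -0.18 and 0.17, and the receptor medians by 0.01, -0.03 and 0.0010. TGFB1 and the receptors thus held no common order over the arrays: the lowest receptor median fell to the array with the highest TGFB1 without doxycycline and to that with the lowest TGFB1 with it. The order of the -DOX arrays was not particular to these receptors. MET read 11.90, 11.22 and 12.51 in -DOX replicates 1, 2 and 3, and PKD2 read 9.22, 8.76 and 9.92. Nor was it shared by all genes: the median deviation of all probe sets was 0.02 in -DOX replicate 2 and -0.02 in -DOX replicate 3.

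TGFB2 and TGFB3, the other TGF-beta ligands, had differences close to 0. TGFB2 read between 6.45 and 6.48 with doxycycline and between 6.48 and 6.54 without, a difference of -0.05 (SE 0.03, 95% interval -0.13 to 0.03). Its groups did not overlap in the deposited decimals, but the nearest arrays were only 1.8e-05 apart. TGFB3 read between 6.93 and 6.95 with and between 6.92 and 6.98 without, a difference of -0.01 (SE 0.03, 95% interval -0.09 to 0.07). With each array centred on its median that of TGFB3 was 0.01, and without -DOX replicate 2 it was 0.00046. TGFB3 therefore has no direction in these data.

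BMP2 and BMP7, further ligands that noggin can bind, also had differences close to 0. BMP2 read between 6.21 and 6.26 with doxycycline and between 6.26 and 6.28 without, a difference of -0.03 (SE 0.03, 95% interval -0.11 to 0.05). BMP7 read between 8.54 and 8.72 with and between 8.49 and 8.61 without, a difference of 0.05 (SE 0.06, 95% interval -0.11 to 0.21). The BMP7 value was 0.00074 without +DOX replicate 3, the brightest BMP7 array, and 0.01 without -DOX replicate 3, the dimmest. Both genes had overlapping groups.

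INHBA encodes the subunit of activin A, the factor added to every culture. It read 6.24, 6.35 and 6.29 in the +DOX arrays and 6.38, 6.33 and 6.36 in the -DOX arrays. The groups overlapped through replicate 2. The difference was -0.06 (SE 0.04, 95% interval -0.16 to 0.04), and -0.04 without +DOX replicate 1, the dimmest INHBA array. Added protein leaves no transcript, so these readings bear only on the cells' own gene.

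Over the whole array the fit called no difference. With limma, 0 of 1259 probe sets passed an adjusted p of 0.05 (0% called), the smallest adjusted p was 0.158, and none of the 9 members passed. At an unadjusted p under 0.05 there were 98 (7.78%). Groups that did not overlap were found for 4 of the 9 members, NOG upwards and BMP4, BMP8B and TGFB2 downwards. Over all probe sets 15.8% did not overlap, 7.55% with the +DOX arrays higher and 8.26% with them lower. As the members were chosen from this contrast, the shares are not read against each other. Of the 9 members 3 were higher and 6 lower (4 and 5 with each array centred on its median); their median was -0.03, and 5 lay within 0.1 of 0. Of all 927 named genes 415 were higher and 512 lower; the median was -0.01, and 572 lay within 0.1 of 0.

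**Figure D3:**
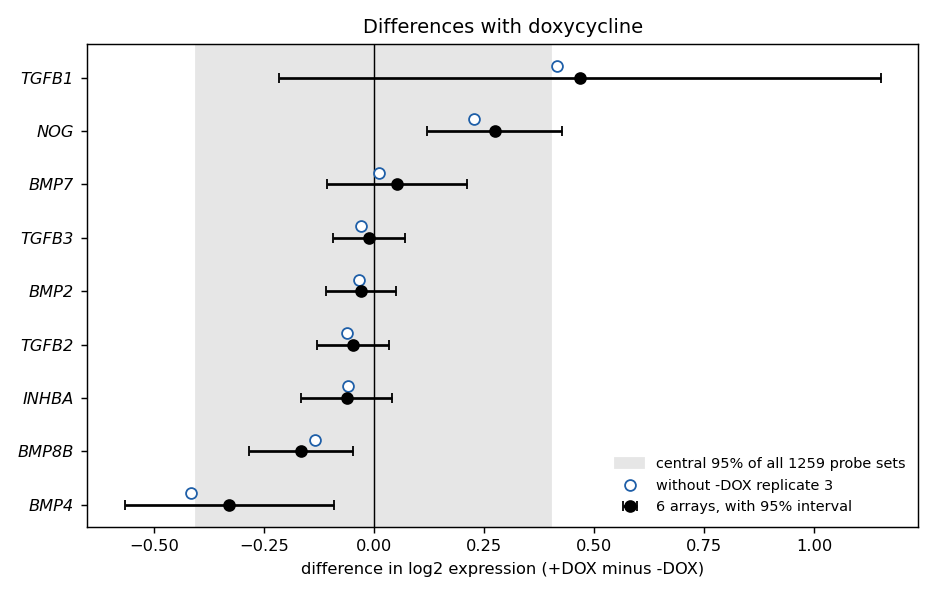
Difference in log2 expression (+DOX minus -DOX) of each gene with its 95% interval from the limma fit (filled points, 6 arrays), the same without -DOX replicate 3 (open points), and the range that holds the central 95% of all probe sets (grey, -0.41 to 0.40). TGFB1 (0.47) is the only filled point outside the grey range and has the widest interval, and NOG (0.27) and BMP4 (-0.33) lie at opposite sides of 0.

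The -DOX array of replicate 3 stood apart from the rest. Over all probe sets it correlated with the other arrays at 0.982 to 0.991, against 0.995 to 0.999 for every pair without it. Without it NOG was at 0.23, BMP8B at -0.14, TGFB1 at 0.42, INHBA and TGFB2 both at -0.06, and BMP2 and TGFB3 both at -0.03. The 9 members kept 3 higher and 6 lower values without that array. The titles name ACVR2, which was taken here as the gene ACVR2A. ACVR2A read 8.08 ± 0.07 with and 8.34 ± 0.32 without doxycycline (SD, n = 3 each). Its difference was -0.26 (SE 0.16, limma, adjusted p = 0.710), and -0.08 without -DOX replicate 3. The array thus shows no induction of this gene, and the groups are named by their labels. No source used here says whether its probes lie in the introduced sequence. Of the colon epithelium markers fixed for this work only MUC1 and LGALS4 were named on the array, at means of 8.74 and 7.30. MUC1 differed by -0.13 (SE 0.06; limma, adjusted p = 0.673) with groups that did not overlap, its other 2 probe sets differed by -0.14 and -0.10, likewise without overlap, and LGALS4 differed by 0.00090; their part in the ligand values was not tested. Markers of endothelial, stromal, blood and neural cells were represented by 5 genes. The brightest 4, CD34, PDGFRB, PECAM1 and NCAM1, had means of 7.55, 7.10, 7.08 and 7.05, and all 5 differed by less than 0.1 between the groups.

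The other ligands of the family differed little. Of 25 listed, 13 were measured, 7 higher and 6 lower with doxycycline; their median was 0.02, and 0 passed in either direction (limma over all probe sets). The 3 with the smallest raw p were BMP6, a ligand close to BMP7, at -0.12 (SE 0.08; limma, adjusted p = 0.710), BMP8A and GDF11, a relative of myostatin, at 0.14 (SE 0.12; limma, adjusted p = 0.730). Their differences ranged from -0.12 to 0.14. GDF15, a distant member induced by cell stress, varied widely among the -DOX arrays (12.79 ± 0.58, SD, n = 3), against 12.82 ± 0.08 with doxycycline. Its lowest -DOX array was replicate 3, at 12.13, whereas TGFB1 read lowest in -DOX replicate 1. Without -DOX replicate 3 the GDF15 difference moved from 0.02 to -0.31, and the median of these ligands to -0.0056.

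Among other secreted regulators 3 of 28 listed genes were measured, and all 3 had lower values, although 1 was higher after centring the arrays on their medians; 0 passed. BMP1, a protease that frees BMPs by cutting the antagonist chordin, was at -0.10 (SE 0.11). Chordin (CHRD) was at -0.05 (SE 0.12), and follistatin (FST), which binds activin, at -0.02 (SE 0.03). The limma adjusted p of these genes was 0.754 or above. NOG, at 0.27, had a higher value where these had lower ones, but the difference between NOG and the others was not tested. Without -DOX replicate 3, CHRD was at -0.15 and BMP1 at -0.21.

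Most receptors had lower values with doxycycline. Of 20 listed, 12 were measured, 10 lower and 2 higher, against 512 lower and 415 higher of all 927 named genes. The median was -0.09 and 0 passed. All 12 had overlapping groups, and 7 lay within 0.1 of 0. ACVR2B, an activin receptor that also takes BMP7, was at -0.52 (SE 0.23; limma, adjusted p = 0.673) and TGFBR2 at -0.35 (SE 0.21; limma, adjusted p = 0.704). Without -DOX replicate 3 they were at -0.31 and -0.16, and the median was -0.02. Without -DOX replicate 2, the array with low receptor readings, the median was -0.28. Of the 8 SMADs 0 were named on the array.

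Of 23 listed genes known to respond to these ligands 3 were measured, and 0 passed. VEGFA, an angiogenic factor, was at -0.22 (SE 0.08; limma, adjusted p = 0.570) with groups that did not overlap. PDGFB, a platelet-derived growth factor chain, was at 0.24 (SE 0.09; limma, adjusted p = 0.590), and JUNB, a transcription factor gene that TGF-beta induces early, at 0.31 (SE 0.26; limma, adjusted p = 0.730). JUNB was at 0.13 without -DOX replicate 3.

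Noggin and several BMPs are held at the cell surface by heparan sulphate chains, which the SULF sulphatases modify. All 17 listed proteoglycan and sulphatase genes were measured, 7 higher and 10 lower with doxycycline, a split that turned to 9 higher after centring; the median was -0.01 and 0 passed. GPC6, a glypican, was at 0.09 (SE 0.04; limma, adjusted p = 0.675), AGRN, the heparan sulphate proteoglycan agrin, at -0.29 (SE 0.16; limma, adjusted p = 0.692), and BGN, the small matrix proteoglycan biglycan, at -0.08 (SE 0.05; limma, adjusted p = 0.692).

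**Figure D4:**
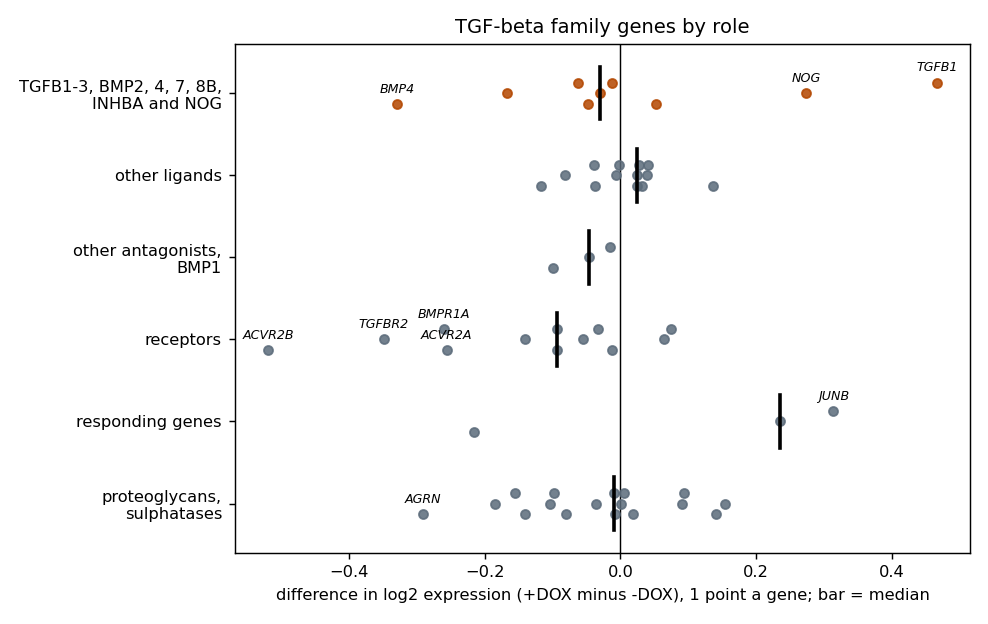
Difference in log2 expression (+DOX minus -DOX) of each measured gene of the TGF-beta family lists, 1 point a gene, with a bar at the median of each list; points are shifted up or down only to keep them apart. TGFB1 (0.47), NOG (0.27) and BMP4 (-0.33), which were chosen with these values known, are marked; the other ligands run from -0.12 to 0.14, and 10 of 12 receptors lie left of 0.

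Each member was compared with all named probe sets other than those of the members, with other genes of the family included. The gene whose values over the 6 arrays were most like those of each member is given as a description. For BMP4 this was CXCL2, a chemokine (Pearson r 0.976, Spearman rho 0.943), which also read lower with doxycycline, at -0.16. For NOG it was CHST1, a keratan sulphate sulphotransferase (r 0.964, rho 0.943), although CHST1 differed by only 0.03. For TGFB1 it was ILK, the integrin-linked kinase (r 0.979, rho 0.943), at 0.30. BMP8B was most like UGT2B17, a glucuronosyltransferase (r 0.994, rho 1), and BMP7 most like the sulphotransferase SULT1A2 (r 0.993, rho 1). UGT2B17 differed by -0.04 and SULT1A2 by 0.03. The matches of the remaining members were DPAGT1 for TGFB2 (r 0.973), CCL21 for TGFB3 (r 0.955), MCAM for BMP2 (r 0.978) and ADGRE3 for INHBA (r 0.970). They differed by -0.12, -0.05, -0.12 and -0.06. UGT2B17 and ADGRE3, at means of 6.42 and 6.54, lay under the lower quartile of all readings. Without -DOX replicate 3 these r values ran from 0.930 for NOG to 0.994 for BMP8B. The best of 1034 probe sets reaches a high r on 6 arrays readily: 20 probe sets were above 0.9 for NOG and 14 for TGFB1.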

How the data were processed

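The values of the 6 arrays were used as deposited: the authors' log2 expression values, made with RMA per the submitters' processing notes (no version given), which corrects background, quantile normalizes arrays and summarises probes. Whether other steps followed, and any genome build, are not given in the sources used here. Symbols came from a RefSeq gene table (GRCh38.p14), matched on the accession in each probe set's identifier, version dropped; 1043 of 1259 (82.8%) received a symbol. Groups come from the sample titles. Differences are +DOX minus -DOX by limma 3.58.1 under R 4.3.3 (lmFit, eBayes, two-sided, Benjamini-Hochberg over 1259 probe sets, threshold 0.05), with no replicate block and no filter. The fit was checked on simulated data in which both groups had the same spread. That check does not cover unequal spreads, and here the median SD was 0.046 with and 0.090 without doxycycline. The number of arrays limits precision: the median 95% interval reached 0.152 to either side. A gene with several probe sets is represented by the brightest.

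Members and lists were chosen with earlier results of these data known. Named are all members, ACVR2A, in each pathway list the 3 genes with the smallest raw p, the brightest markers, and for each member the gene of highest Pearson r. GDF15, MET, PKD2, and TGFBR2 in single arrays, were chosen after their values were seen. Alternatives were centring, renewed quantile normalization, array weights, a replicate block, a filter at the 25 percentile, an intensity trend, mean of probe sets, and leaving out each array.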

Additional observations from a re-analysis of the deposited data

How the results depend on the processing

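With limma, the count of probe sets past the threshold was 1 under array weights by REML and 0 under the other fitted alternatives. Averaging a gene's probe sets was applied only to list counts and medians. Array weights were planned, but the REML iterations stopped short of converging. Weights fitted gene by gene then took the planned place, and REML was kept as an added setting. This was settled after seeing the data. At an unadjusted p under 0.05 the count of 98 became 184 with array weights fitted gene by gene and 246 by REML, and ran from 45 to 258 when 1 array was left out. The 41 higher and 57 lower among the 98 became 63 and 44 with each array centred on its median. Of all probe sets 45.4% were higher, 56% after centring and 50.5% after renewed quantile normalization.

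NOG, TGFB1, BMP7, BMP4, BMP8B, BMP2, TGFB2 and INHBA kept their sign in every alternative that held them; TGFB3 did not. NOG ran from 0.27 to 0.29 and BMP4 from -0.37 to -0.27 over the 7 alternatives that kept all arrays. TGFB1 rested more on the weights, at 0.71 with array weights fitted gene by gene and 0.76 by REML, as did BMP7, at 0.02 and 0.01. BMP2 was -0.0097 after centring and -0.049 by REML weights. The median of the 9 genes was -0.0097 after centring, -0.012 after renewed quantile normalization, -0.049 by REML weights, and 0.020 over the 6 genes kept when dim probe sets were left out; the 3 dropped were TGFB2, BMP2 and INHBA. After centring 4 of 9 were higher.

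When 1 array was left out, the median of the other ligands ran from -0.0056 to 0.028, and the other antagonists had 0 to 1 higher genes, with 1 also after centring and with the mean of a gene's probe sets. Leaving out dim probe sets left 4 other ligands and 4 proteoglycans higher because fewer genes were tested, with a proteoglycan median of -0.10. After centring 9 of 17 proteoglycan and sulphatase genes and 9 of 13 other ligands were higher. That median was -0.041 with array weights fitted gene by gene and -0.040 by REML, and 1 receptor was higher under either. The cause of these moves was otherwise not tested.

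The groups share replicate numbers. Deviations from the group means correlated at -0.15, -0.04 and -0.16 for replicates 1, 2 and 3. Arrays of unlike number were not compared, so whether the numbers pair the arrays cannot be told. The fit with the replicate block passed 0 probe sets, with 81 at an unadjusted p under 0.05.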
